A study of Mus musculus with 24 samples.

Results

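The comparison described here sets 4 arrays of cells given NaHS for 6 h against 4 arrays of cells given vehicle for 6 h, 8 of the 24 arrays of the series, chosen by their labels. The cells were primary murine alveolar type II cells, the lung epithelial cells that make, store and recycle surfactant, grown to a monolayer at an air-liquid interface. NaHS is a fast donor of hydrogen sulfide (H2S), set free as the salt dissolves. It was added at 100 µM, and the vehicle was the culture medium DMEM. The labels name no genotype, strain, age or sex, no oxygen level for these 8 arrays, and leave unsaid whether each replicate came from its own culture or animal. The p-values therefore reflect only how much these samples vary, which may be technical variation. The question is whether the fast donor alters messenger RNA levels early, and, where no change is called, how large a change the arrays leave possible.

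H2S is a gas made in cells from cysteine and homocysteine by Cbs, Cth and Mpst, and it is cleared in mitochondria by a chain that begins with Sqor and goes on through Ethe1, Tst and Suox to thiosulfate and sulfate. It adds sulfur to reactive cysteines of proteins, among them those of KEAP1, the sensor that holds back the transcription factor NRF2, and at high levels it blocks cytochrome c oxidase. In the lung it has been studied as a protective gas and for its action on sodium transport across the alveolar epithelium.

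All values are log2 signals relative to the 75th percentile of the same array. Differences are NaHS minus vehicle at 6 h, ± standard error, from limma with slide as a block and 4 arrays per group. The fit also took in the arrays of cells given NaHS or vehicle for 24 h. Standard errors, intervals and p-values therefore rest in part on the spread at 24 h, except where a fit on the 8 arrays alone is named. Replicates 1 and 3 of both groups lay on slide 1, replicates 2 and 4 on slide 2. At 6 h, between 55.8% and 58.1% of probes lay well above background on the 4 arrays of slide 1, and between 68.9% and 72.9% on those of slide 2. NaHS arrays sat in columns 3 and 4 of each slide and vehicle arrays in columns 1 and 2, so position and treatment cannot be told apart. A gene is called well measured where its probe lay well above background on all 8 arrays, which held for 22876 of 33250 genes and unnamed probes tested. Of 22 alveolar type II markers 20 were well measured, among them Sftpc, Sftpb and Abca3, and Slc34a2 did not pass the filter on dim probes. Replicate 4 of both groups stood apart in the markers of alveolar cells, as described further on. The medians of some lists are given with and without replicate 4 arrays, while named genes are given with them.

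No gene changed past the threshold. limma called 0 of 33250 (0%) at an adjusted p under 0.05, the smallest adjusted p was 1, and 633 (1.9%) had an unadjusted p under 0.05. That 1.9% lies below the share that a threshold of 0.05 gives when nothing differs, and the reason was not tested. Without vehicle replicate 4, 1 dim unnamed probe was called and 2035 (6.12%) had an unadjusted p under 0.05. Among the well measured, with all arrays, 241 (1.05%) did so, of them 5 members of the lists below (Cat, Atf3, Hsd17b7, Inmt and Meox2). Every gene named below had an adjusted p of 1. For a pathway list, the smallest p and the widest and narrowest intervals are those among its well measured members. The same fit called 698 (2.1%) for 24 h against 6 h in vehicle, a comparison that shares the vehicle arrays at 6 h. It called 0 (0%) for the NaHS effect at 24 h minus that at 6 h.

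A p that misses the threshold does not show that 2 levels are alike, so the 95% interval of each difference was used as a bound on the change. Bounds inside 2-fold in both directions were obtained for 20969 of the 22876 well measured genes (91.7%), and inside 1.5-fold for 16460 (72%). A test of equivalence within 2-fold, with Benjamini-Hochberg adjustment over all genes, passed for 21455 of them (93.8%). The interval reached a median of 0.307 on either side of the difference, a 1.24-fold change. Which genes were bounded depended in part on the 24 h arrays that share in the spread. Fitted on the 8 arrays alone, 25747 of all 33250 were bounded within 2-fold, against 25275 in the main fit. Single genes moved both ways, as given below for some of them. Bounds were narrower for brighter probes. With the well measured genes split by brightness into 4 equal groups, 81.8% of the dimmest group and 98.8% of the brightest were bounded within 2-fold. Of the 10374 genes that were not well measured, 41.5% were bounded. The sign of a difference carried little from 1 slide to the other: the correlation between the difference on slide 1 and that on slide 2 was 0.048 across well measured genes, which are not independent replicates, and 53.5% had the same sign on both.

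**Figure D1:**
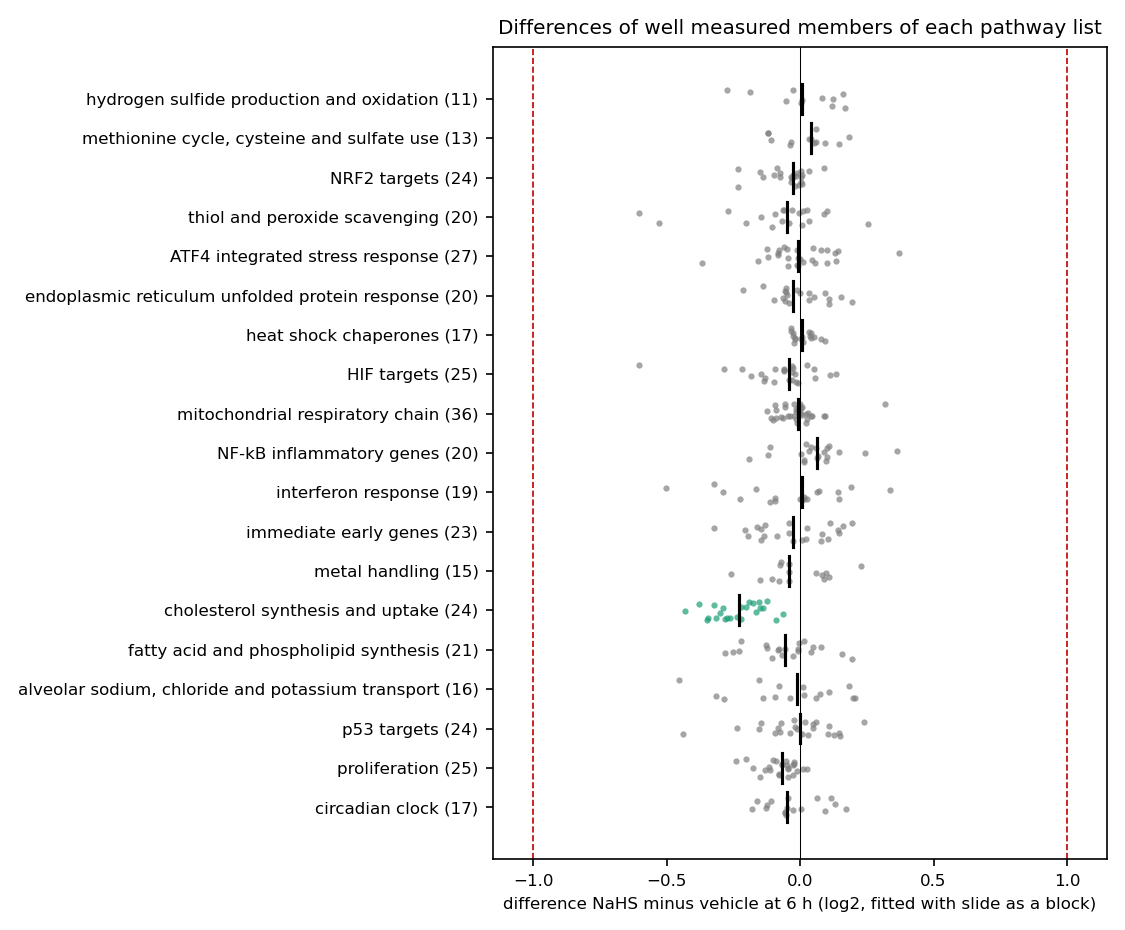
Fitted log2 differences, NaHS minus vehicle at 6 h, of the well measured members of 19 pathway lists, 1 point per gene and a black bar at each list's median, with dashed lines at a 2-fold change either way. Every point lies between the dashed lines, and the 24 cholesterol genes (green) all lie below 0, around a median of -0.23.

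The enzymes that make and clear H2S were measured with varied precision and none passed the test. Mpst, which makes H2S from 3-mercaptopyruvate, stood at 2.05, 1.68, 1.83 and 1.48 in vehicle replicates 1 to 4 and at 1.97, 1.72, 1.78 and 1.61 in NaHS replicates 1 to 4. The groups overlapped, the difference was 0.008 ± 0.096, and its 95% interval of -0.20 to 0.22 corresponds to 0.871 to 1.16 times the vehicle level. Sqor, the quinone oxidoreductase that takes up H2S in mitochondria, stood at 3.16, 3.3, 3.45 and 3.73 and at 3.09, 3.27, 3.38 and 3.68. Arrays of the same replicate number lay close together and the groups overlapped, with a difference of -0.053 ± 0.17 and an interval of -0.41 to 0.31.

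Ethe1, the persulfide dioxygenase, had the narrowest interval of these enzymes, -0.20 to 0.15 around -0.026 ± 0.080. Suox, which oxidises sulfite to sulfate, differed by 0.084 ± 0.10 (-0.14 to 0.31), and Tst, the sulfur transferase rhodanese, by 0.17 ± 0.17 (-0.20 to 0.54), the smallest p of the list. Cbs, cystathionine beta-synthase, stood at 0.46, 0.40, 1.64 and 0.54 in vehicle and at 0.77, 0.76, 1.45 and 0.56 in NaHS. Replicate 3 was high in both groups, and the interval of -0.56 to 0.81 around 0.12 ± 0.32 still lay within 2-fold. Cth, cystathionine gamma-lyase, did not: it stood at 1.9, 2.44, 2.85 and -0.037 and at 2.4, 1.55, 3.1 and 0.57, low on replicate 4 of both groups, and its interval ran from -1.18 to 1.41.

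Over the whole list, 11 of 12 genes were well measured and Dao did not pass the filter on dim probes. Of the 11, 7 had a positive and 4 a negative difference with a median of 0.008, beside -0.0015 over all well measured genes. The 2-fold bound held for 9 of 11 (91.7% of all well measured genes) and failed for Cth and Cdo1, the cysteine dioxygenase. Genes of the methionine cycle and of cysteine and sulfate use were bounded more tightly, with 13 of 13 well measured members within 1.5-fold (72% of all well measured genes). Mat2b, a subunit of the enzyme that makes S-adenosylmethionine, had the smallest p there, at -0.11 ± 0.082.

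Targets of NRF2, the transcription factor of the antioxidant response, showed no call, and 22 of 24 well measured members were bounded within 2-fold. Txnrd1, thioredoxin reductase 1, stood at 5.4, 5.23, 5.35 and 5.6 in vehicle and at 5.4, 5.4, 5.42 and 5.3 in NaHS. The groups overlapped, with a difference of -0.012 ± 0.096 and an interval of -0.22 to 0.20. Srxn1, which restores oxidised peroxiredoxins, differed by 0.003 ± 0.091 (-0.19 to 0.20), and Gclm, the modifier subunit of the enzyme that starts glutathione synthesis, by -0.028 ± 0.17 (-0.39 to 0.34).

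Nqo1, the quinone reductase often read as the marker of NRF2 activity, stood at -0.80, -1.06, -0.51 and 0.89 in vehicle and at -0.24, -0.31, -0.42 and -0.59 in NaHS. Vehicle replicate 4 was the highest of the 8 arrays, and the interval of -0.77 to 0.74 around -0.018 ± 0.35 lay within 2-fold. On the 8 arrays alone the interval was -1.004 to 0.968, just past 2-fold on the low side. Hmox1, heme oxygenase 1, stood at 3.27, 3.61, 3.63 and 3.11 and at 3.86, 2.75, 3.7 and 2.38. NaHS was above vehicle on slide 1 and below it on slide 2, and the interval of -1.34 to 0.87 was the widest of the list. On the 8 arrays alone the Hmox1 interval was -0.874 to 0.407, within 2-fold. Slc7a11, the cystine transporter, differed by -0.033 ± 0.26 (-0.60 to 0.54). Gsr, glutathione reductase, had the smallest p of the list at -0.15 ± 0.11, and G6pdx, which feeds it NADPH, the narrowest interval, -0.22 to 0.16. The list had 7 positive and 17 negative differences around a median of -0.028, beside 50.5% negative over all well measured genes. The median turned positive, to at most 0.065, within slide 1, with array quality weights and in both settings that left out vehicle replicate 4.

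Among genes of thiol and peroxide scavenging, 18 of 20 well measured members were bounded within 2-fold. Catalase, Cat, which breaks down hydrogen peroxide, had the smallest p of the list. It stood at 0.45, 0.36, 0.55 and 0.40 in vehicle and at 0.82, 0.63, 0.85 and 0.48 in NaHS, with replicates 1 to 3 of NaHS above all vehicle arrays and replicate 4 within their range. The difference was 0.26 ± 0.10 and the interval of 0.038 to 0.47 corresponds to 1.03 to 1.39 times the vehicle level. Thioredoxin, Txn1, differed by -0.059 ± 0.071 with the narrowest interval of the list, -0.21 to 0.095.

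Txnip, the thioredoxin-binding arrestin whose transcription follows glucose supply, was lower on every NaHS array than on any vehicle array. It stood at 0.82, 1.09, 0.99 and 0.89 in vehicle and at 0.54, 0.38, 0.73 and 0.035 in NaHS. The difference was -0.53 ± 0.49, with an interval of -1.59 to 0.54 that left a fall of over 2-fold possible. This wide interval came with arrays outside the comparison: the shared estimate of spread included 24 h, where Txnip ran from -1.89 to 0.64 in vehicle and from -2.09 to 0.53 in NaHS. Fitted on the 8 arrays alone, the same difference had a standard error of 0.15 and an interval of -0.889 to -0.166, within 2-fold. The adjusted p of that fit was 1 in limma.

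The 250 bases before the start of Txnip are shown because this window holds the paired E-box-like element through which glucose-sensing factors act, in capitals. They are RefSeq sequence of GRCm38.p6, plus strand, chr3:96557707-96557956.
Txnip: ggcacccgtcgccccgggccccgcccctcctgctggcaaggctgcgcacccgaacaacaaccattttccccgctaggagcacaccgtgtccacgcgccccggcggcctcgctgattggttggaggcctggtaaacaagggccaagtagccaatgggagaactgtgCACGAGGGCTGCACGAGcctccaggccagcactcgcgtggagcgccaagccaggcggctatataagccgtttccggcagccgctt
The pattern searched was CACGNG followed after 5 bases by a second CACGNG, on both strands, found in the windows of 14 of 27025 genes (0.0518%). A match describes these letters only.

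Genes of the integrated stress response, which ATF4 drives when amino acids run short or proteins misfold, varied widely between arrays. Asns, asparagine synthetase, stood at 6.16, 6.26, 6.64 and 5.26 in vehicle and at 6.39, 5.74, 6.54 and 5.4 in NaHS. Replicate 4 was the lowest of its group in both, the groups overlapped, and the difference was -0.060 ± 0.24 with an interval of -0.59 to 0.47. Chac1, which degrades glutathione, differed by -0.082 ± 0.34 (-0.81 to 0.65), and the pseudokinase gene Trib3 by -0.044 ± 0.40 (-0.91 to 0.83). Ddit3, the transcription factor CHOP, differed by -0.006 ± 0.50 with an interval of -1.08 to 1.07 that reached past 2-fold on both sides.

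Atf3, a transcription factor of early stress, had the smallest p of this list. It stood at 1.8, 1.63, 1.55 and 1.92 in vehicle and at 1.67, 1.16, 1.38 and 1.21 in NaHS, overlapping only through NaHS replicate 1. The difference was -0.37 ± 0.15. Of 27 well measured members, 24 were bounded within 2-fold and 15 within 1.5-fold, with 11 positive and 16 negative differences and a median of -0.008.

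Chaperone genes were among the most tightly bounded. All 20 well measured genes of the endoplasmic reticulum unfolded protein response and all 17 of the heat shock list had intervals within 1.5-fold. Hspa5, the chaperone BiP, stood at 7.2, 7.14, 7.32 and 7.13 in vehicle and at 7.15, 7.02, 7.22 and 7.2 in NaHS, with a difference of -0.050 ± 0.072 (-0.21 to 0.11). Herpud1, of endoplasmic reticulum-associated degradation, had the smallest p of its list at -0.21 ± 0.13. Hsp90ab1, an abundant cytosolic chaperone, differed by -0.018 ± 0.063 (-0.15 to 0.12). Hspb1, a small heat shock protein, had the smallest p at 0.095 ± 0.11. Hspa1a, the inducible HSP70, had the widest interval of the heat shock list, -0.40 to 0.47 around 0.037 ± 0.20.

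Respiratory chain genes were bounded in full, with 36 of 36 within 2-fold and 35 within 1.5-fold around a median of -0.009. The subunits of cytochrome c oxidase, the complex that H2S blocks, were measured brightly: Cox4i1 stood at 7.07, 6.85, 7.06 and 6.71 in vehicle and at 6.99, 6.83, 7.0 and 6.87 in NaHS. The groups overlapped, and the interval of -0.18 to 0.17 around -0.002 ± 0.080 corresponds to 0.886 to 1.13 times the vehicle level. Cox5b differed by 0.030 ± 0.089 (-0.16 to 0.22), and Atp5b, a subunit of ATP synthase, by 0.025 ± 0.062 (-0.11 to 0.16). Atp5pb had the widest interval, -0.11 to 0.74 around 0.32 ± 0.20, with vehicle replicate 1 at 3.70 and the other 7 arrays between 4.51 and 4.90.

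Targets of HIF, the factor of low oxygen, had 20 of 25 negative differences, with 24 of 25 bounded within 2-fold and a median of -0.041. Vegfa, which drives vessel growth, stood at 4.91, 4.95, 5.33 and 3.82 in vehicle and at 5.17, 4.26, 5.43 and 4.02 in NaHS. It was lowest on replicate 4 in both groups and differed by -0.032 ± 0.25 (-0.57 to 0.50). Slc2a1, the glucose transporter GLUT1, differed by -0.098 ± 0.17 (-0.47 to 0.28), and Gpi1, of glycolysis, by -0.041 ± 0.078 (-0.21 to 0.13). Adm, the vasodilator peptide adrenomedullin, had the smallest p at -0.60 ± 0.38 and was the 1 member not bounded, with -1.43 to 0.22. Slc16a3, the lactate exporter, had the widest interval, -0.97 to 0.92. Within slide 1 the list had 11 negative differences of 25 and a median of 0.014.

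Inflammatory genes could be bounded less often. Of 20 well measured NF-kB genes, 17 had positive differences around a median of 0.062, and 14 were bounded within 2-fold. Nfkbia, the inhibitor that NF-kB induces as its own brake, stood at 4.51, 3.94, 4.27 and 4.4 in vehicle and at 4.36, 4.24, 4.33 and 4.42 in NaHS, with 0.059 ± 0.17 and an interval of -0.30 to 0.42. Nfkbiz had the smallest p of the list at 0.36 ± 0.18, and Nfkb2 the narrowest interval, -0.11 to 0.33. The list's positive sign was lost without vehicle replicate 2, at a median of -0.005, and without vehicle replicate 3, at -0.039.

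Chemokine genes were the least settled members. Cxcl1, which draws neutrophils, stood at -1.66, -3.44, -3.14 and -0.51 in vehicle and at -2.29, -1.62, -2.93 and -1.85 in NaHS. The vehicle arrays enclosed all NaHS arrays, and the interval of -1.22 to 1.25 around 0.015 ± 0.57 left changes of over 2-fold possible either way. Ccl2, which draws monocytes, likewise had an interval of -1.39 to 1.4, and Cxcl10, of the interferon list, one of -1.28 to 1.57. Isg15, a ubiquitin-like protein induced by interferon, differed by 0.000 ± 0.16 with an interval of -0.35 to 0.35, and 16 of 19 well measured interferon genes were bounded within 2-fold. Irf9, which carries the signal to the nucleus, had the narrowest interval, -0.24 to 0.37, and Dhx58, a sensor of viral RNA, the smallest p of the well measured members at 0.34 ± 0.28.

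Immediate early genes, which respond quickly to growth factors and stress, were all bounded within 2-fold, 23 of 23. Fos differed by -0.042 ± 0.14 (-0.34 to 0.26), Egr1 by 0.025 ± 0.18 (-0.36 to 0.41) and Myc by 0.077 ± 0.084 (-0.11 to 0.26). Ier5 had the smallest p of the list at -0.19 ± 0.096. All 15 genes of metal handling were bounded as well, among them the metallothionein Mt1 at 0.099 ± 0.14 (-0.21 to 0.41) and Tfrc, the transferrin receptor, with the widest interval, -0.92 to 0.40. Steap3, a ferrireductase, had the smallest p there at 0.23 ± 0.18.

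Alveolar ion transport is a process on which H2S has been tested, and its genes fell into a well bounded and an unsettled set. Atp1b3, a beta subunit of the sodium pump, stood at 3.76, 3.77, 3.64 and 3.42 in vehicle and at 3.76, 3.7, 3.71 and 3.66 in NaHS, with 0.059 ± 0.078 and the narrowest interval of the list, -0.11 to 0.23. Scnn1a, the alpha subunit of the epithelial sodium channel, stood at 1.87, 1.71, 1.54 and 3.99 in vehicle and at 1.41, 2.85, 1.29 and 4.36 in NaHS. Replicate 4 was high in both groups and NaHS replicate 2 lay between, and the interval of -1.62 to 2.02 around 0.20 ± 0.84 bounded little. Scnn1b, the beta subunit, behaved alike with -1.98 to 2.35, and Cftr and Scnn1g did not pass the filter on dim probes. Abcc9, the sulfonylurea receptor 2 of potassium channels, had the smallest p of the well measured members at -0.45 ± 0.38 (-1.28 to 0.37). Of 16 well measured members 13 were bounded within 2-fold.

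Growth and clock genes gave bounds without calls. Cdkn1a, the cell cycle inhibitor p21, differed by 0.048 ± 0.12 (-0.21 to 0.30), and 23 of 24 p53 targets were bounded within 2-fold, with 12 positive and 12 negative differences. Of 25 well measured proliferation genes 23 had negative differences, all 25 were bounded within 1.5-fold, and the median was -0.066. Mki67 stood at 4.37, 3.37, 3.97 and 4.19 in vehicle and at 3.95, 4.05, 3.91 and 3.94 in NaHS, for -0.013 ± 0.20. The list's median was -0.213 on slide 1 and 0.07 on slide 2, and it was above 0 with array quality weights and without vehicle replicate 4, so its sign rested on part of the arrays. All 17 well measured clock genes were bounded within 2-fold, with Per1 at 0.13 ± 0.083 (-0.049 to 0.31). Zmat3, an RNA-binding p53 target, had the smallest p of its list at 0.13 ± 0.073, and Pcna, the sliding clamp of DNA replication, the narrowest interval of the proliferation list, -0.30 to 0.069.

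Genes of cholesterol synthesis and uptake were the pathway list whose members leaned most uniformly to 1 side. SREBP2, the product of Srebf2, switches this pathway on when sterols are low, together with the factor NF-Y at CCAAT boxes. All 24 well measured members had negative differences, beside 50.5% of all well measured genes, around a median of -0.23, and none was called. In the brightest of the 4 groups of well measured genes 61.3% had negative differences. On both slides 19 of 24 were negative (27.8% of all well measured genes). The list was chosen with earlier results of these data known.

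At the head of the pathway, Hmgcs1, which makes the precursor HMG-CoA, stood at 5.78, 5.85, 5.51 and 4.24 in vehicle and at 5.39, 4.64, 5.44 and 4.53 in NaHS. Vehicle replicates 1 to 3 were the 3 highest arrays and vehicle replicate 4 the lowest of all 8. The difference was -0.35 ± 0.27 with an interval of -0.93 to 0.24. Idi1, which isomerises the isoprene building block, stood at 4.51, 4.79, 4.35 and 3.26 in vehicle and at 4.08, 3.46, 4.14 and 3.5 in NaHS. Here too vehicle replicates 1 to 3 were the highest and vehicle replicate 4 the lowest of the 8, and the difference of -0.43 ± 0.25 was the lowest of the list.

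Further along, Sqle, the squalene epoxidase, differed by -0.24 ± 0.20 (-0.66 to 0.18). Hsd17b7, which acts on sterol intermediates, stood at 2.11, 2.06, 2.17 and 1.84 in vehicle and at 1.92, 1.43, 1.95 and 1.62 in NaHS. It had the smallest p of the list, with a difference of -0.32 ± 0.093 and an interval of -0.52 to -0.11 that corresponds to 0.7 to 0.924 times the vehicle level. NaHS lay below both vehicle arrays of its slide on all 4 NaHS arrays. Its probe lies on chromosome 1 from 171883182 to 171883241 (mm9).

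Regulators of the pathway had negative differences as well. Insig1, which holds SREBP back when sterols are plentiful, differed by -0.27 ± 0.30 (-0.91 to 0.37). Srebf2 itself differed by -0.090 ± 0.14. Of the 24 members 23 were bounded within 2-fold and 7 within 1.5-fold. Nsdhl had no value on vehicle replicate 1 and was fitted without it, at -0.090 ± 0.30 and it is not among the 24. Srebf2 and Nsdhl were named after their values were seen.

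The upstream windows of Hmgcs1 and Hsd17b7 are shown because these genes lie at the head of the list and at its smallest p. They are RefSeq sequence of GRCm38.p6, 250 bases before the start, for Hmgcs1 chr13:119690101-119690350 on the plus strand and for Hsd17b7 chr1:169969206-169969455 on the minus strand. Capitals mark matches to the sterol element TCACNCCAC and to CCAAT on either strand (ATTGG where it reads backwards).
Hmgcs1: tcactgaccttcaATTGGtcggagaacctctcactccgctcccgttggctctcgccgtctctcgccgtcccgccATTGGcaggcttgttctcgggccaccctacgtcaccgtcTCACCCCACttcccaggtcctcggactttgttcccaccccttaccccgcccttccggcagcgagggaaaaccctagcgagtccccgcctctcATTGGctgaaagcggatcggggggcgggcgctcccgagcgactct
Hsd17b7: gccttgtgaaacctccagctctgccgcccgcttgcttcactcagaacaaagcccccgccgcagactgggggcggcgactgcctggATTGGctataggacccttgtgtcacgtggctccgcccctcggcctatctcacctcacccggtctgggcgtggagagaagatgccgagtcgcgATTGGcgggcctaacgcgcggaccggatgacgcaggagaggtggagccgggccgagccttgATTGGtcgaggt
Of the 25 listed genes 17 had such a window. A CCAAT match stood in 16 of the 17 (94.1%), beside 10133 of 27025 genes with a window (37.5%), and a TCACNCCAC match in 1 of the 17 beside 331 of 27025 (1.22%). These shares describe letters, and no binding was measured.

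**Figure D2:**
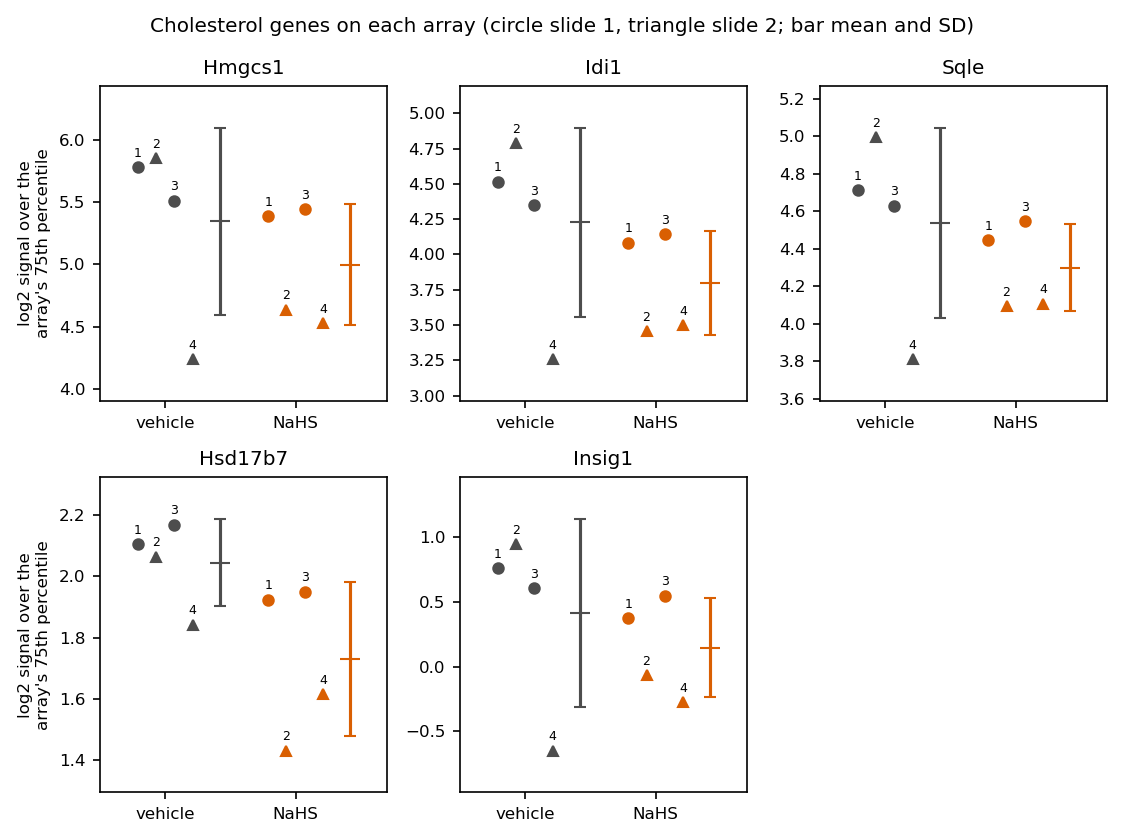
Log2 signal of 5 cholesterol genes over the array's 75th percentile on each of the 8 arrays at 6 h, numbered by replicate (circles slide 1, triangles slide 2), with the mean and SD of each group of 4. Vehicle replicate 2 lies high and vehicle replicate 4 low in 4 of the 5 panels, and NaHS replicates 2 and 4 lie between them; Hsd17b7 is the exception.

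The size of this lean rested on single vehicle arrays. Vehicle replicate 2 was the highest vehicle array in 19 of 24 members and vehicle replicate 4 the lowest in 24 of 24. They lie on the same slide and differed by a median of 1.178, against 0.097 between NaHS replicates 2 and 4. Both NaHS arrays of slide 2 lay between these vehicle arrays in 20 of 24 members. On slide 1 both NaHS arrays lay below both vehicle arrays in 13 of 24.

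Without vehicle replicate 2 the median was -0.041 with 17 of 24 negative, and without vehicle replicate 4 it was -0.47 with 24 of 24 negative. Without both replicate 4 arrays it was -0.372 with 24 of 24 negative. Between arrays of the same replicate number the median difference was -0.16, -0.911, -0.076 and 0.225 for replicates 1 to 4, and in the pair of replicate 4 arrays 2 of 24 were negative. Slide 1 alone gave -0.135 with 19 of 24 and slide 2 alone -0.335 with 24 of 24. With normexp background correction 23 of 24 were negative. Fatty acid and phospholipid genes had a median of -0.056 with 15 of 21 negative, and all 21 were bounded within 2-fold. The median turned positive, to at most 0.014, without vehicle replicate 1 or 2. There, Acly, which makes cytosolic acetyl-CoA, had the smallest p at -0.22 ± 0.13, and Srebf1 the narrowest interval, -0.12 to 0.20.

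**Figure D3:**
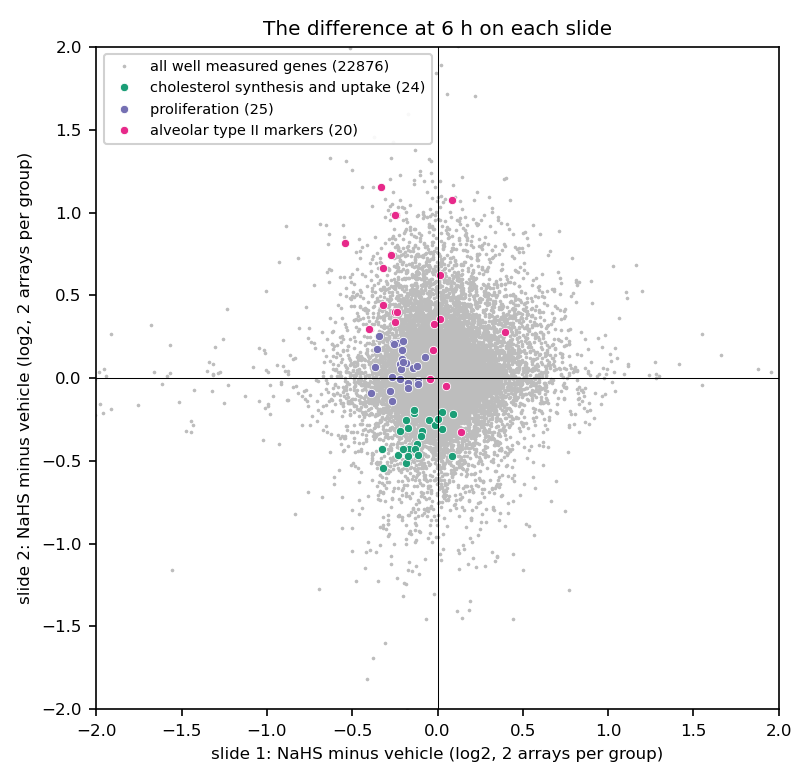
Log2 difference NaHS minus vehicle at 6 h on slide 1 (x axis) against slide 2 (y axis), each from 2 arrays per group, for the 22876 well measured genes (grey; 32 lie beyond the plotted range) and the members of 3 lists. Cholesterol genes lie below 0 on slide 2 and mostly left of 0, while proliferation genes lie left of 0 around a slide 2 median of 0.07 and alveolar type II markers lie mostly above 0 on slide 2.

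Levels of alveolar markers spread widely between arrays of the same group. Sftpc, surfactant protein C, stood at 2.97, 3.38, 3.33 and 4.93 in vehicle and at 2.94, 4.23, 2.86 and 6.05 in NaHS. Replicate 4 was the highest of its group in both, and the interval of -1.34 to 2.08 around 0.37 ± 0.79 left more than a 2-fold change possible either way. Ager, a receptor of alveolar type I cells, stood at -0.11, -0.34, -0.19 and 2.93 in vehicle and at -0.54, 1.53, -0.76 and 3.57 in NaHS, again highest on replicate 4, with -2.21 to 2.97. Abca3, the lipid pump of lamellar bodies, was bounded, at 0.073 ± 0.21 (-0.39 to 0.54).

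The mean of the 20 well measured type II markers was -0.12, -0.14, -0.15 and 0.91 in vehicle replicates 1 to 4 and -0.30, 0.38, -0.26 and 1.37 in NaHS. Only 7 of the 20 were bounded within 2-fold, and the median difference was -0.24 on slide 1 and 0.396 on slide 2. For 19 type I markers the means were 1.07, 0.70, 0.71 and 2.56 and 1.02, 1.69, 0.56 and 2.56, with 8 of 19 bounded. Without NaHS replicate 4 the medians of these lists were -0.203 and -0.144, against 0.146 and 0.234 with it, and without vehicle replicate 4 they were 0.356 and 0.534.

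Markers of other lung cells were present too. Of 17 fibroblast markers 16 were well measured, with means of 2.18, 2.19, 2.08 and 1.73 in vehicle and 1.88, 1.75, 1.95 and 1.31 in NaHS. Of these, 14 differences were negative around a median of -0.254 (50.5% of all well measured genes negative), 8 were bounded within 2-fold, and 4 had groups that did not overlap with NaHS lower (0.367% of all well measured genes). The median was -0.057, with 9 of 16 negative, without NaHS replicate 4 and -0.243, with 12 of 16 negative, without both replicate 4 arrays. Between arrays of the same replicate number the median difference was -0.173, -0.291, -0.092 and -0.401 for replicates 1 to 4. In bulk samples such as these, fewer cells of a type and less RNA per cell cannot be told apart.

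The 4 fibroblast markers with separate groups include regulators of lung mesenchyme, named here after their values were seen except for Inmt. Inmt, an indole methyltransferase of lung fibroblasts, stood at -2.22, -1.8, -2.2 and -1.82 in vehicle and at -2.47, -2.57, -2.54 and -2.82 in NaHS, for -0.59 ± 0.23. Tcf21, a transcription factor of lipofibroblasts, stood at -1.39, -1.55, -1.33 and -1.31 and at -2.0, -1.77, -1.74 and -1.73, and Meox2, a homeobox factor, at -1.01, -2.28, -2.31 and -2.65 and at -3.78, -3.48, -2.66 and -3.77. For Meox2 the lowest vehicle and the highest NaHS array nearly met, and its vehicle replicate 1 stood more than 1 log2 unit above the rest. The differences were -0.42 ± 0.29 (-1.05 to 0.21) for Tcf21 and -1.36 ± 0.56 (-2.58 to -0.14) for Meox2.

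Fgf10, the growth factor that mesenchyme sends to epithelium, differed by -0.70 ± 0.47, and the interval of -1.71 to 0.32 included no change. Matrix genes of the same list, also named after their values were seen, had differences near 0. Col1a1 differed by -0.017 ± 0.13 (-0.31 to 0.27), Col3a1 by -0.062 ± 0.21 (-0.51 to 0.39) and the filament gene Vim by -0.057 ± 0.15 (-0.38 to 0.27). Whether these genes differed from Inmt and Tcf21 in their response was not tested.

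**Figure D4:**
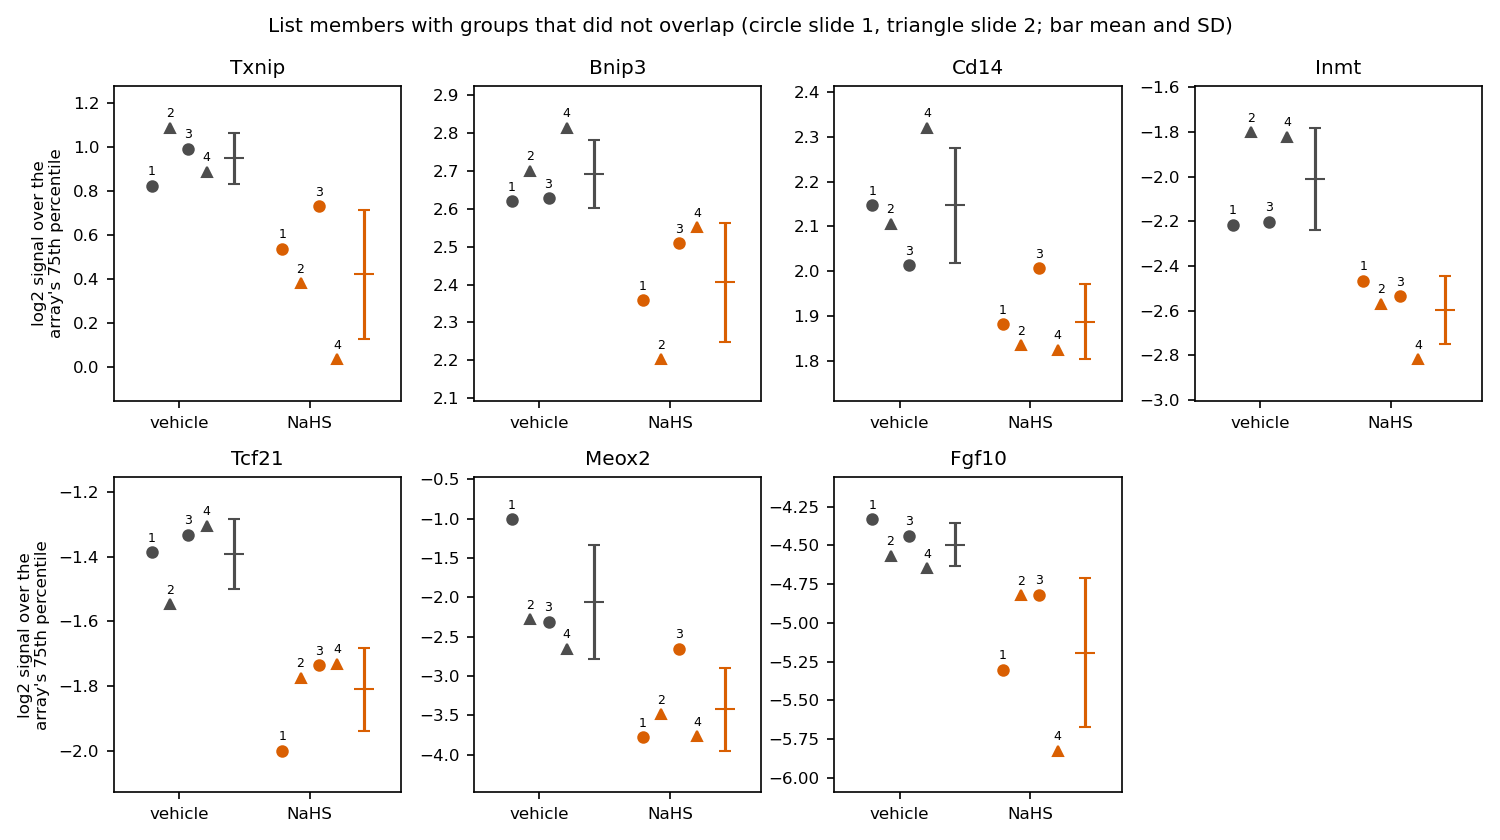
Log2 signal over the array's 75th percentile on each of the 8 arrays at 6 h for the 7 well measured list members with groups that did not overlap, numbered by replicate (circles slide 1, triangles slide 2), with the mean and SD of each group of 4. All 7 were lower in NaHS, and the gap between the groups is narrow for Cd14 and Meox2.

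Outside the fibroblast list, the other members with separate groups were Txnip, Bnip3 and Cd14 (Bnip3 was named after its values were seen), all lower in NaHS. Bnip3, which marks mitochondria for removal, stood at 2.62, 2.7, 2.63 and 2.81 in vehicle and at 2.36, 2.2, 2.51 and 2.55 in NaHS, for -0.29 ± 0.25 (-0.82 to 0.25). Cd14, a co-receptor for bacterial lipopolysaccharide on macrophages, differed by -0.26 ± 0.15 (-0.58 to 0.064). Over all well measured genes 168 had separate groups (0.734%), 84 higher and 84 lower in NaHS.

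Ciliated cell markers had 7 of 8 negative differences around a median of -0.316, and their means were -0.74, -0.85, -0.88 and 0.48 in vehicle and -0.88, -0.76, -0.97 and -0.54 in NaHS. Vehicle replicate 4 alone stood above 0, and without it the median was 0.059 with 2 of 8 negative. Club cell markers, also highest on vehicle replicate 4, had means of 1.31, 0.73, 0.29 and 2.21 and 1.03, 1.22, 0.21 and 0.67. Scgb3a1, a secretoglobin, had the smallest p of that list at -1.25 ± 0.69. Smooth muscle means were lowest on replicate 4 in both groups, at 2.66, 3.1, 3.15 and 2.2 and 2.79, 2.74, 3.09 and 2.25. The part of these cell type signals in the other results was not tested.

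**Figure D5:**
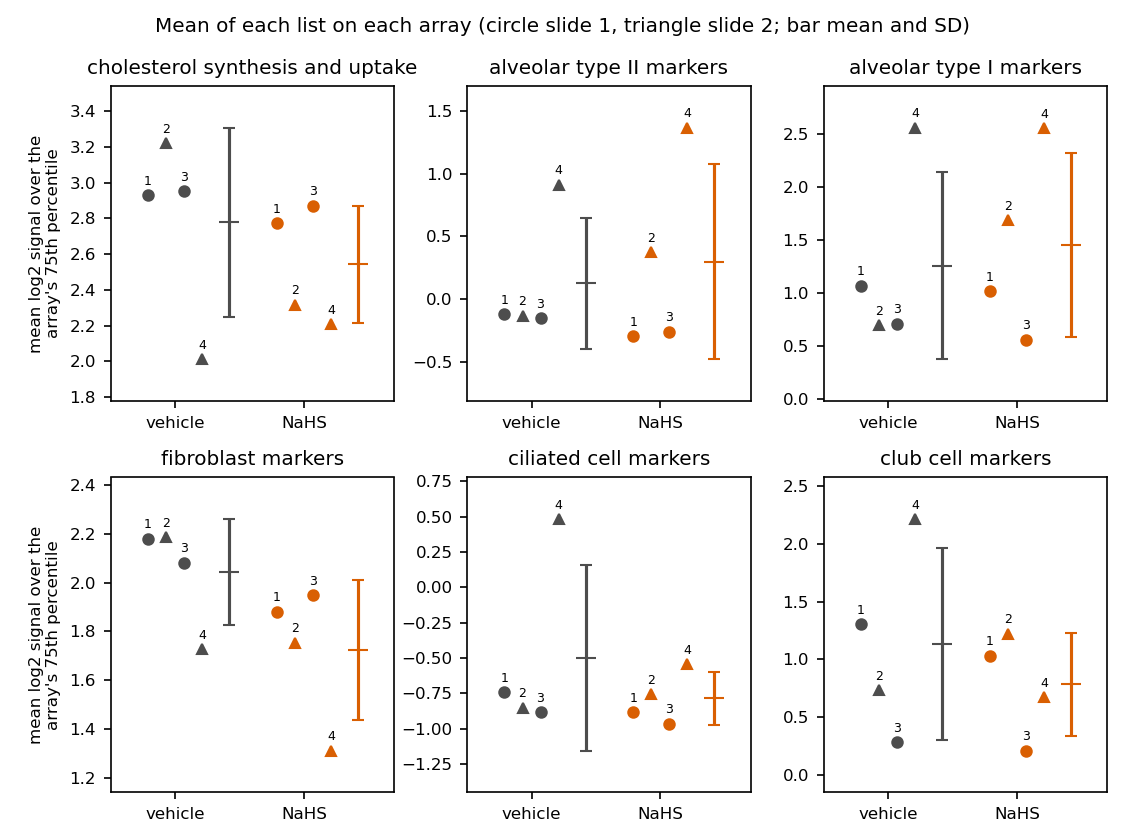
Mean log2 signal over the array's 75th percentile of the well measured members of 6 lists on each of the 8 arrays at 6 h, numbered by replicate (circles slide 1, triangles slide 2), with the mean and SD of each group of 4. Replicate 4 is highest in type II and type I markers in both groups, and vehicle replicate 4 is lowest in cholesterol genes and highest in ciliated and club cell markers.

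Among macrophage, endothelial, basal, neutrophil and lymphocyte markers 10 of 16, 10 of 15, 8 of 8, 7 of 11 and 4 of 14 were well measured, with median differences of 0.018, 0.148, 0.054, -0.014 and -0.001. Of 6 erythroid markers 1 was well measured. No member of any marker list was called. Cd8a, of cytotoxic lymphocytes, had the smallest unadjusted p of its list, but lay well above background on 2 of 4 arrays in each group. The other smallest p-values per list belonged to Lgi3 (0.34 ± 0.31) for type II, Cav1 (0.39 ± 0.24) for type I, Ltf (-0.73 ± 0.38) for neutrophil, Tppp3 (-0.47 ± 0.26) for ciliated and Krt17 (0.37 ± 0.31) for basal markers, all well measured. For 3 lists the gene with the smallest p was dim and its size is not given. These were Synpo2 for smooth muscle, well above background on 3 of 4 arrays in each group, and Tie1 for endothelial and Klf1 for erythroid markers, each on 1 of 4 vehicle and 2 of 4 NaHS arrays.

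The well measured genes with the smallest p in each direction, none past the threshold, belonged to varied functions. Setmar, a histone methyltransferase, had the smallest p of the negative side. It stood at -1.56, -1.58, -1.7 and -1.63 in vehicle and at -1.86, -1.82, -1.85 and -1.93 in NaHS, without overlap, for -0.25 ± 0.069, and its interval of -0.40 to -0.098 corresponds to 0.76 to 0.934 times the vehicle level. Foxo3, a transcription factor of stress resistance, was also lower on every NaHS array, at -0.32 ± 0.11 (-0.56 to -0.075). Its groups nearly met, at -2.332 on vehicle replicate 4 and -2.355 on NaHS replicate 4.

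Further negative differences were those of Hsd17b7, Spata48 (-0.52 ± 0.16), Slx (-0.71 ± 0.23), Zbtb21 (-0.47 ± 0.16), the activin antagonist follistatin, Fst (-0.42 ± 0.14), and arginase 1, Arg1 (-0.66 ± 0.23). Fst stood at 4.67, 4.27, 4.51 and 4.13 in vehicle and at 4.31, 4.06, 4.12 and 3.42 in NaHS. NaHS was lower than vehicle at each replicate number, and the groups overlapped. Arg1, which splits arginine into ornithine and urea, stood at 1.0, 1.22, 1.26 and 0.87 and at 0.95, 0.28, 1.02 and -0.52, with the NaHS arrays of slide 2 the lowest.

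On the positive side, Mpp2, a membrane-associated scaffold of the guanylate kinase family, had the smallest p. It stood at -2.91, -2.82, -2.74 and -3.06 in vehicle and at -2.26, -2.38, -2.67 and -2.46 in NaHS, without overlap, for 0.44 ± 0.13. Mapk9, the stress kinase JNK2, was measured most precisely of these, at 1.31, 1.42, 1.39 and 1.35 and 1.5, 1.52, 1.63 and 1.59, with 0.19 ± 0.063 and an interval of 0.058 to 0.33 that corresponds to 1.04 to 1.26 times the vehicle level. Clec16a (0.34 ± 0.11), Kmt2d (0.34 ± 0.11), a histone H3 lysine 4 methyltransferase, and Slc9b2 (0.37 ± 0.12) were also higher on every NaHS array than on any vehicle array. Srsf12 (0.46 ± 0.14), the heat shock factor Hsf4 (0.52 ± 0.16) and Myoz1 (0.58 ± 0.19) had overlapping groups. The Setmar probe lies on chromosome 6 from 108026703 to 108026762, that of Mpp2 on chromosome 11 from 101919069 to 101919128, and that of Mapk9 on chromosome 11 from 49699496 to 49699555 (mm9).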

How the data were processed

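RNA of each sample was hybridised to a 1-colour (Cy3) Agilent whole-genome mouse array. The deposited intensity is the processed signal of Agilent Feature Extraction 10.7.3.1, per the file headers, which that software corrects for background. A deposited log2 value table of the same arrays, centred and scaled in a way not given in the sources used here, served as an alternative. Its columns correlate with the log2 processed signals at 0.9979 or more and have medians of 5.953 to 5.954. Probe positions are those of the array files (mm9).

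Control and outlier spots were left out, spots of 1 probe were averaged, and log2 intensities were taken minus the array's 75th percentile. Probes well above background on at least 4 of the 16 arrays of the NaHS experiment (6 h and 24 h) were kept, and the probe with the highest mean stood for a gene. Gene names came from the array's symbols and accessions through RefSeq tables, and 22720 of 55681 probes stayed unnamed. Group means with slide as a block were fitted over the 16 arrays with limma 3.58.1 in R 4.3.3 (lmFit, eBayes, Benjamini-Hochberg), so 24 h arrays share in the estimate of spread. The fit was tested on simulated data. Intervals are 95% intervals of the difference, and the number of arrays limits their precision. Equivalence was tested as 2 one-sided tests against 2-fold.

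The groups share replicate numbers. Deviations of same-numbered vehicle and NaHS samples correlated at 0.621, 0.543, 0.743 and 0.768 for replicates 1 to 4, and samples of the other number on the same slide at 0.371, 0.263, 0.677 and 0.523. With slide removed the same-number correlations were 0.275 on slide 1 and 0.428 on slide 2. All exceed 0.1, so the numbers may pair the samples, which the labels do not say. NaHS replicate 1 did not correlate best with its own number. The differences, intervals and bounds given above have slide as the block and do not use this pairing. A fit with the replicate number as a block was an alternative.

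Genes named are those with the 8 smallest p-values in each direction among named genes well above background on all 8 arrays, a fixed list of pathway and marker genes, and per list the smallest p (marker lists, all tested members; pathways, well measured members) and, for pathways, the widest and narrowest interval. Genes added after their values were seen are marked. Some of the genes so chosen are not reported here. The comparison, members and lists were chosen with earlier results of these data known. Alternatives were other blocks, scalings, background corrections, filters, array quality weights, single slides and leaving out each replicate.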

Additional observations from a re-analysis of the deposited data

Results flagged for a closer look

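Among 290 values examined (named genes and list means, in each group of 4), 15 had a sample set apart from the other 3 by a gap that chance gives in about 1 of 20 groups. The share flagged, 15 of 290, is itself close to 1 in 20. The values share arrays and some list means include named genes, so they are not independent. This share therefore cannot tell whether the flags arose by chance. Vehicle replicate 4 was the sample set apart in 10 of the 15. It stood high for Ager at 2.93 (next -0.11), Scnn1a at 3.99 (next 1.87), Scnn1b at -0.37 (next -2.73), Abca3 at 3.57 (next 2.70), Hspa1a at 0.19 (next -0.55) and Dhx58 at -3.55 (next -4.98). Its mean of type II markers was 0.91 (next -0.12) and its mean of ciliated cell markers 0.48 (next -0.74). It stood low for Acly at 4.65 (next 5.30) and for Atp5b at 7.56 (next 7.67).

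Vehicle replicate 3 was set apart for Cbs at 1.64 (next 0.54), for Zbtb21 at -3.40 (next -3.89) and, on the low side, for the mean of basal cell markers at 0.33 (next 0.68). Vehicle replicate 2 was low for Kmt2d at -1.84 (next -1.50). In NaHS, replicate 2 was high for Adm at -0.35 (next -1.05).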

How the results depend on the processing

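The count of called genes was 0 in every setting tried, except without vehicle replicate 4, so the leave-one-out range was 0 to 1. The 1 call was an unnamed probe well above background on 1 of 4 vehicle and 2 of 4 NaHS arrays, at 1.85 ± 0.19 (adjusted p = 0.0248) there, 1.21 ± 0.45 (adjusted p = 1) with all arrays and -0.023 with normexp. With the replicate number as a block, 0 were called, 740 had an unadjusted p under 0.05 and 25461 of 33250 were bounded within 2-fold, against 25275 with the slide block, and the pairing changed no call. Bounded counts ran from 19276 without a slide block to 32733 with normexp on the same genes, and from 23484 to 24456 over the fits that left out 1 replicate. The normexp setting adds an offset of 50 to each signal, which shrinks the log2 differences of dim probes. Its bounded count and its value for the unnamed probe are therefore not on the same scale as the rest. A probe-level fit, no filter on dim probes and the 8 arrays alone also gave 0 calls, with 790, 1209 and 850 unadjusted. Leaving out both replicate 4 arrays, a setting chosen after seeing the data, gave 0 calls and 1329 unadjusted. No scaling moved the median of all genes by over 0.1. Of 31 list medians, cholesterol, fibroblast, club cell, thiol and erythroid kept their sign in every setting run. The thiol and club cell medians came as near 0 as -0.01, and the erythroid median is that of 1 gene. All settings reuse the same arrays. The other list medians changed sign in at least 1 setting, that of the interferon list in 12 of 22. Of the alternative values of list medians, 679 lay within the replicate spread of the main value, whatever their sign, and 3 lay beyond it. For named genes 2470 lay within the residual spread of the main value and 33 beyond it. Leaving out a replicate keeps 3 arrays in that group.

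The limits are the 4 arrays a group, 2 slides, and dim probes, of which 41.5% were bounded. Treatment and array column cannot be told apart, and the origin of the replicates is not given.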

Other observations

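Values with spread estimated from the 8 arrays alone order the genes differently, and all adjusted p-values there are 1. Arrdc4, an arrestin-domain gene of the same protein family as Txnip, had the smallest p of 15278 well measured named genes in that fit and was chosen after its values were seen. It stood at 0.55, 0.85, 0.83 and 0.56 in vehicle and at 0.086, -0.085, 0.17 and -0.32 in NaHS, so every NaHS array lay below every vehicle array. The difference was -0.74 ± 0.33 in the fit over 16 arrays (95% interval -1.46 to -0.012) and -0.74 ± 0.13 on the 8 arrays, at -0.562 on slide 1 and -0.908 on slide 2. Txnip ranked 19 in the same order. The paired element searched in the Txnip window had 0 matches in the 250 bases before the start of Arrdc4, which says only that these letters are not in that window. The probe of Arrdc4 lies on chromosome 7 from 75886496 to 75886555 (mm9).

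The next in that order were Hsf4 at 0.52, Zfp784 at -0.45, Olfr224 at 0.70, Rln3 at -0.36, Inmt at -0.59, Adam22 at -0.46, Prrx1, a mesenchymal homeobox factor, at -0.49, Tcf21 at -0.42, Clec16a at 0.34, Meox2 at -1.36 and Ldhal6b at 0.46, all with an adjusted p of 1.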
